A study of Mus musculus with 6 samples.

Results

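The genes described here are the PGC-1 coactivators and the Nr4a nuclear receptors, together with the receptors and the mitochondrial factor that act with PGC-1. They are 10 of the 22180 genes measured, namely Ppargc1a, Ppargc1b, Nr4a1, Nr4a2, Nr4a3, Esrra, Esrrg, Ppara, Ppard and Tfam. They were chosen by their roles and on their castrated minus sham differences in these same arrays, chiefly those of Ppargc1a and Nr4a3. Each was found by its platform gene symbol and had 1 probe set that names it alone, so no choice between probe sets arose. A probe set gives 1 value per gene and does not separate transcript isoforms. The values come from the tibialis anterior, a fast-twitch muscle of the lower leg, of male C57Bl/6 mice aged 18 weeks. The sham group (3 samples) had a sham operation at 11 weeks of age, and the castrated group (3 samples) had the testes removed at that age. All were sampled 7 weeks after surgery. The feeding label reads fasted for every sham sample and refed for every castrated sample. The series design describes mice kept fasted and mice fed for 30 minutes after an overnight fast, with a further 4 hours without food before sampling, whereas the protocol on each sample describes the meal for all mice. Castration and the feeding label therefore cannot be told apart, and every difference below sets castrated samples labelled refed against sham samples labelled fasted. The sources conflict on whether the sham mice had the meal.

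Ppargc1a encodes PGC-1 alpha, a coactivator that binds transcription factors and raises the transcription of genes for mitochondrial respiration and fatty acid oxidation. In skeletal muscle it is known to be induced by exercise, cold and fasting, through cAMP, calcium and AMP-activated kinase signals. The Nr4a receptors are orphan nuclear receptors encoded by early-response genes, which the same cAMP and calcium signals induce within a short time in muscle. The estrogen-related receptors and the PPARs are nuclear receptors that PGC-1 coactivates, and Tfam packages mitochondrial DNA and activates its transcription.

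Because cAMP acts on promoters through the cAMP response element, the promoter windows of the members were searched for it. RefSeq windows of 300 bases on GRCm38.p6, from 250 before to 50 after a start, were held for 9 of the 10 members, in 12 windows. The half-site TGACG, read on both strands, was found in the windows of 6 members. It occurred 4 times in each of Nr4a1, Nr4a2 and Nr4a3 and 1 time in each of Ppargc1a, Ppara and Ppard. Of all 27025 genes in the table, 23.0% had a window with at least 1 half-site and 0.255% had one with 4 or more. The whole palindrome TGACGTCA, which contains the half-site, was found in no member window and in 2.03% of all genes. The element AAAGGTCA, to which Nr4a receptors bind as monomers, and the estrogen-related receptor element TCAAGGTCA, which shares its last 7 letters with the former, were also in no member window. They were in 1.7% and 0.466% of all genes. A match is a description of letters and not a site of binding.

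The sequences upstream of the starts of Ppargc1a and the Nr4a genes are shown because these are the members that differed most or are close relatives of one that did. They run 5′ to 3′ on the gene's strand, with each half-site in capitals (TGACG, or CGTCA where it lies on the other strand). The first 3 are the 250 bases before the start, at chr5:51567726-51567975 (minus strand), chr15:101266596-101266845 (plus strand) and chr2:57124004-57124253 (minus strand). Nr4a3 is shown as 2 stretches of 30 bases, chr4:48045083-48045112 and chr4:48045145-48045174 (plus strand), because the annotated gene begins inside its window, upstream of the start used. Its other half-site lies 231 bases before that start.
Ppargc1a: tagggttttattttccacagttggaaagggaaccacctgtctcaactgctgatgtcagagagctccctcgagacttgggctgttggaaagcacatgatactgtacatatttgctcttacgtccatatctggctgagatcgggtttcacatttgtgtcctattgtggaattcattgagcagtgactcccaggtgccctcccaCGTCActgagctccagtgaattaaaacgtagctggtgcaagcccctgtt
Nr4a1: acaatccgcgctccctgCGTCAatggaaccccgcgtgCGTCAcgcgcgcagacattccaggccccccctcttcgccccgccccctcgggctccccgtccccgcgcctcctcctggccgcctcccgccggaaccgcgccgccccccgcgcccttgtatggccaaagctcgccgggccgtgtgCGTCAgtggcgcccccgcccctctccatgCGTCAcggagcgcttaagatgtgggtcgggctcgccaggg
Nr4a2: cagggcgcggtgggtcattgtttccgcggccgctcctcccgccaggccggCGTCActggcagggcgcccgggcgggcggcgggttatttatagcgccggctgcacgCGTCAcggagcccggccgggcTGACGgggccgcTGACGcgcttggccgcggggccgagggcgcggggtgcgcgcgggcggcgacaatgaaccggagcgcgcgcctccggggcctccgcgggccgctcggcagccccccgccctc
Nr4a3, first stretch: gtcccatgtCGTCAcatTGACGtctcgcat
Nr4a3, second stretch: cctgtggcataaaTGACGtgccgagagagc

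Across the arrays, the median log2 value over genes lay between 5.40 and 5.47. Over all genes, 2 arrays of the same group had correlations of 0.990 to 0.992, and 2 arrays of different groups had 0.989 to 0.992. The 9 fast fibre markers, among them Ckm, Myh4 and Acta1, had values between 11.96 and 13.64 on every array, far above those medians. Of all 22180 genes 3 passed the limma test at an adjusted p of 0.05, which is 0.0135%. None of the 10 members was among them. At an unadjusted p under 0.05 there were 2 members, both higher in castrated samples, where 3.62% of all genes were, and none was lower, where 3.51% of all genes were. The groups did not overlap for 3 members, 2 of them higher and 1 lower in castrated samples, against 5.73% and 7.02% of all genes. The members were chosen with this comparison known, so their differences are given below as descriptions, and nothing is read from these counts.

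**Figure D1:**
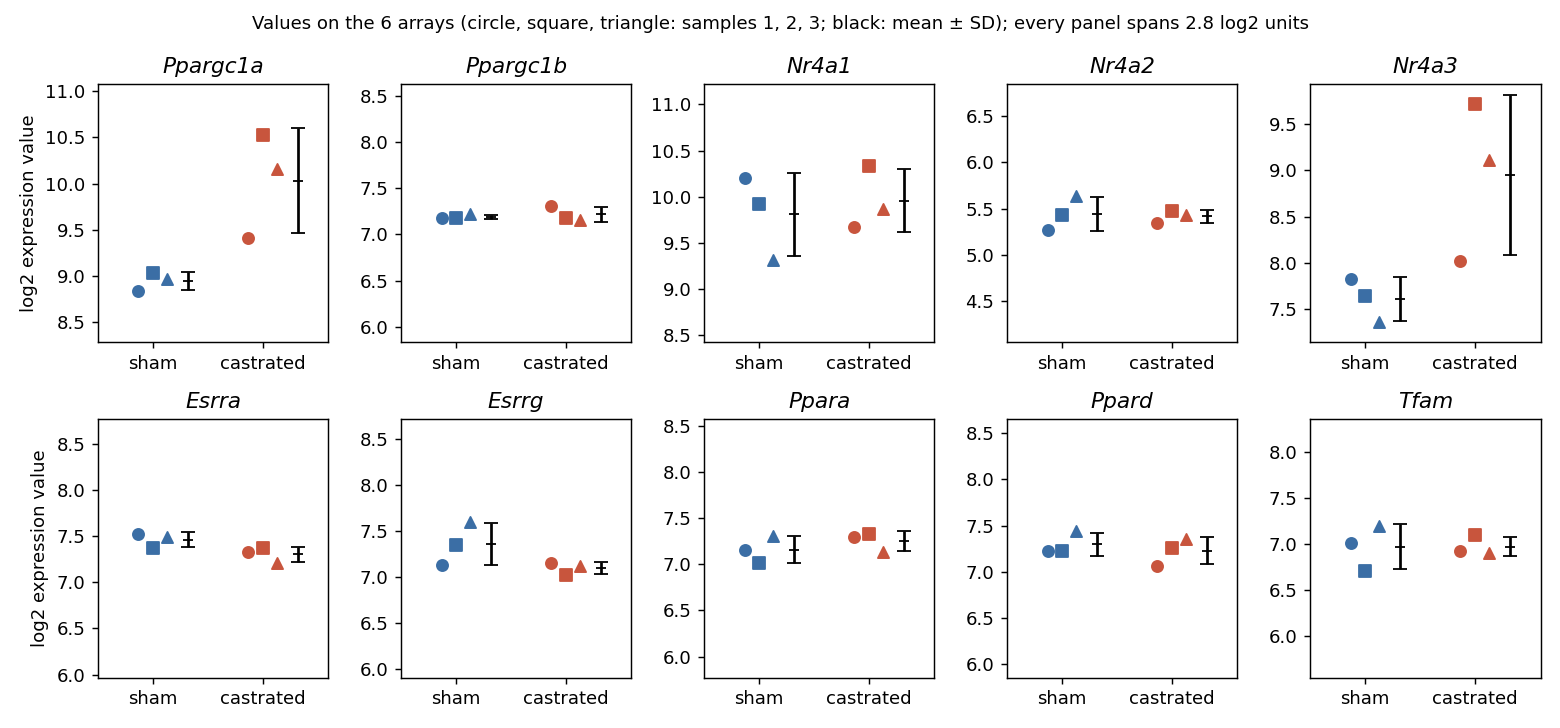
Log2 expression values of the 10 genes on the 6 arrays, with sham samples in blue, castrated samples in red, and the mean ± SD of each group in black; all panels have the same span. Ppargc1a and Nr4a3 are higher in all castrated samples than in any sham sample, with castrated sample 1 nearest to the sham values, and the groups of the other genes overlap or, for Esrra, nearly touch.

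Ppargc1a was 2.12-fold higher in castrated than in sham muscle. Its log2 values were 8.84, 9.03 and 8.97 in sham samples 1 to 3 and 9.41, 10.53 and 10.16 in castrated samples 1 to 3. The sham samples lay within 0.19 of each other, whereas the castrated samples spanned 1.11, and the lowest castrated sample was 0.38 above the highest sham sample. The means were 8.95 ± 0.098 and 10.03 ± 0.57 (SD, n = 3 each), a log2 difference of 1.09 with a standard error of 0.24 from limma. By size this was the 14th difference of the 22180 genes, of which 16, or 0.0721%, differed by 1 or more in either direction. Against the sham mean, castrated sample 1 was higher by 0.47, sample 3 by 1.21 and sample 2 by 1.58. Without castrated sample 2 the difference was 0.84 and without castrated sample 1 it was 1.40.

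Ppargc1b encodes PGC-1 beta, the close relative that shares many targets and is less responsive to exercise and fasting. Its values were 7.17, 7.18 and 7.22 in sham and 7.31, 7.18 and 7.16 in castrated samples. The groups overlapped, and the difference was 0.027 with a 95% interval from limma of −0.19 to 0.24, computed for this gene alone. The castrated sample with the lowest Ppargc1a value, sample 1, had the highest Ppargc1b value.

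Nr4a3, which encodes the receptor NOR1, was 2.53-fold higher in castrated muscle and had the largest difference of the members. Its log2 values were 7.83, 7.64 and 7.36 in sham samples 1 to 3 and 8.02, 9.72 and 9.11 in castrated samples 1 to 3. The lowest castrated sample stood 0.19 above the highest sham sample, and the order of the castrated samples was the same as for Ppargc1a. The means were 7.61 ± 0.24 and 8.95 ± 0.86, a log2 difference of 1.34 with a standard error of 0.36. It was the 6th difference by size of all genes, and its spread among castrated samples was the 16th largest of 22180. Without castrated sample 2 the difference was 0.95, and without castrated sample 1 it was 1.81.

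Nr4a1, which encodes NUR77, had a spread between samples of one group larger than the difference between groups. Its values were 10.20, 9.92 and 9.31 in sham and 9.67, 10.34 and 9.87 in castrated samples. The groups overlapped, with sham sample 1 above 2 of the castrated samples. The difference was 0.15 with a 95% interval of −0.39 to 0.68, so its direction is undetermined. It was −0.10 without sham sample 3 and 0.34 without sham sample 1. The SD of 0.45 among sham samples stood at the 97.6th percentile of all genes.

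Nr4a2, which encodes NURR1, a receptor best known from dopamine neurons, had values of 5.27, 5.43 and 5.64 in sham and 5.34, 5.47 and 5.44 in castrated samples. These lay close to the array medians, and whether they were above background was not tested. The difference was −0.029 with an interval of −0.29 to 0.24. The 3 receptors of the family thus had differences of 1.34, 0.15 and −0.029, and all 3 of their promoter windows held 4 cAMP half-sites.

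**Figure D2:**
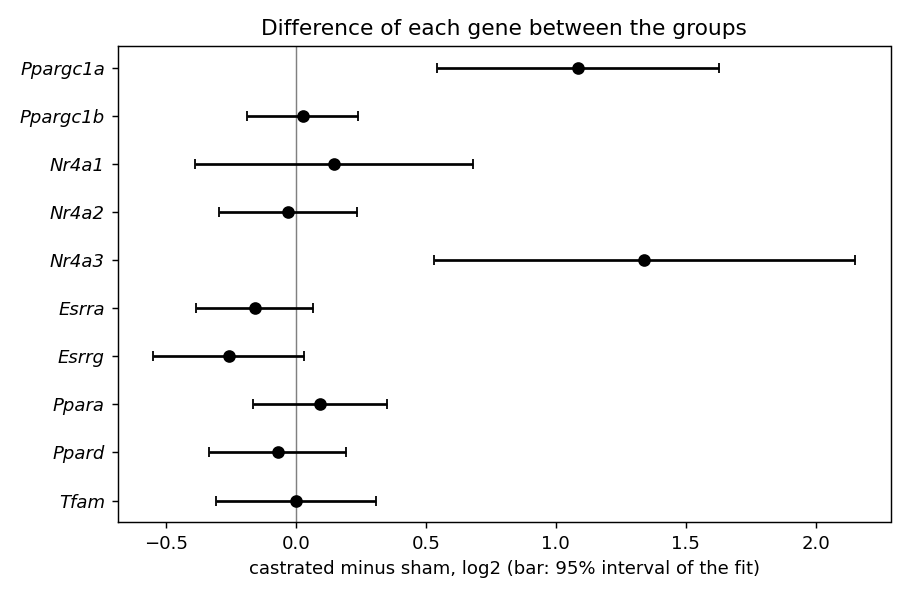
Castrated minus sham difference of each of the 10 genes on the log2 scale, with its 95% interval from the fit over all genes; the intervals are per gene and not adjusted for the number of genes. The points of Ppargc1a (1.09) and Nr4a3 (1.34) stand apart from the other 8, which lie between −0.26 and 0.15 with intervals that include 0.

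Among the receptors that PGC-1 coactivates, Esrra encodes ERR alpha, a constitutively active regulator of respiratory genes whose own gene PGC-1 alpha can induce. Its values were 7.52, 7.37 and 7.49 in sham and 7.33, 7.37 and 7.21 in castrated samples. All castrated samples were below all sham samples, but the closest pair, sham 2 and castrated 2, were 0.0011 apart. The difference was −0.16 with an interval of −0.38 to 0.067. Esrrg encodes ERR gamma, which is known for driving oxidative fibre genes and capillary growth. Its values were 7.13, 7.35 and 7.59 in sham and 7.15, 7.03 and 7.12 in castrated samples. The groups overlapped through sham sample 1. The difference was −0.26 with an interval of −0.55 to 0.033, and it was −0.14 without sham sample 3. Both genes thus had lower castrated means while that of Ppargc1a was higher, and neither difference had an interval clear of 0.

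The PPARs sense fatty acids and induce genes of their uptake and oxidation. Ppara had values of 7.16, 7.01 and 7.31 in sham and 7.29, 7.33 and 7.13 in castrated samples, a difference of 0.093 with an interval of −0.16 to 0.35. Ppard, the main PPAR of skeletal muscle, had values of 7.22, 7.23 and 7.44 in sham and 7.07, 7.26 and 7.35 in castrated samples, a difference of −0.070 with an interval of −0.33 to 0.19. The groups of both genes overlapped. Tfam, a downstream step of PGC-1 action in mitochondrial biogenesis, stood at 7.00, 6.71 and 7.19 in sham and 6.92, 7.09 and 6.90 in castrated samples. Its difference was 0.0013 with an interval of −0.31 to 0.31, and it was −0.017 when arrays were centred on their medians.

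Ppargc1a and Nr4a3 followed each other over the 6 arrays (Pearson's r = 0.970, Spearman's rho = 0.829, n = 6 arrays, given as a description). With the mean of each group removed, r was 0.924. Without the 2 arrays farthest from the Ppargc1a median, castrated samples 2 and 3, it was 0.561 over 4 arrays, so the relation rests largely on those samples. Within the sham group the order differed, since sham sample 1 had the lowest Ppargc1a and the highest Nr4a3 value. All values of an array share its RNA extract and labelling.

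**Figure D3:**
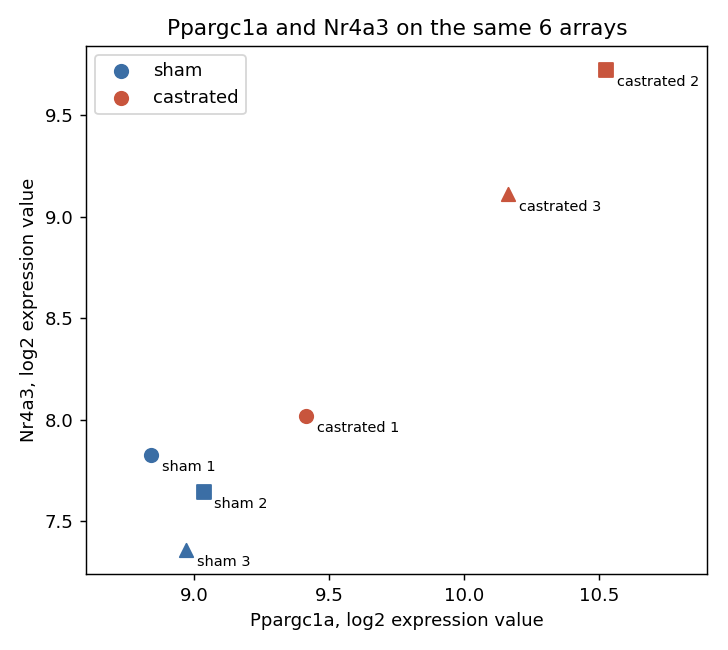
Log2 value of Nr4a3 against that of Ppargc1a on each of the 6 arrays, sham in blue and castrated in red, with the sample named beside each point. Castrated samples 2 and 3 lie far to the upper right, castrated sample 1 lies near the sham samples, and the 3 sham samples show no common slope.

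Of the 45 pairs of members, 27 had an r above 0 and the median r was 0.0934. Only 1 pair, Ppargc1a with Nr4a3, reached 0.9, and 3 pairs reached 0.8 in size. The other two were Ppara with Tfam (r = 0.825, and 0.90 with group means removed) and Nr4a1 with Esrrg (r = −0.807, and −0.920 with group means removed). Without the 2 arrays farthest from the median of the first gene of the pair, r was 0.522 for Ppara with Tfam and −0.0513 for Nr4a1 with Esrrg, over 4 arrays. Neither Ppara nor Tfam separated the groups. Ppargc1a and Ppargc1b had r = −0.182, which was −0.824 with group means removed. The sign for this pair was not stable, since r was 0.082 after quantile normalization and 0.920 over 4 arrays without castrated samples 2 and 3. Ppargc1a had r = −0.673 with Esrra and −0.632 with Esrrg, and with group means removed these were −0.0562 and −0.135. With 6 arrays, and 4 degrees of freedom left after the group means, single coefficients are imprecise.

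**Figure D4:**
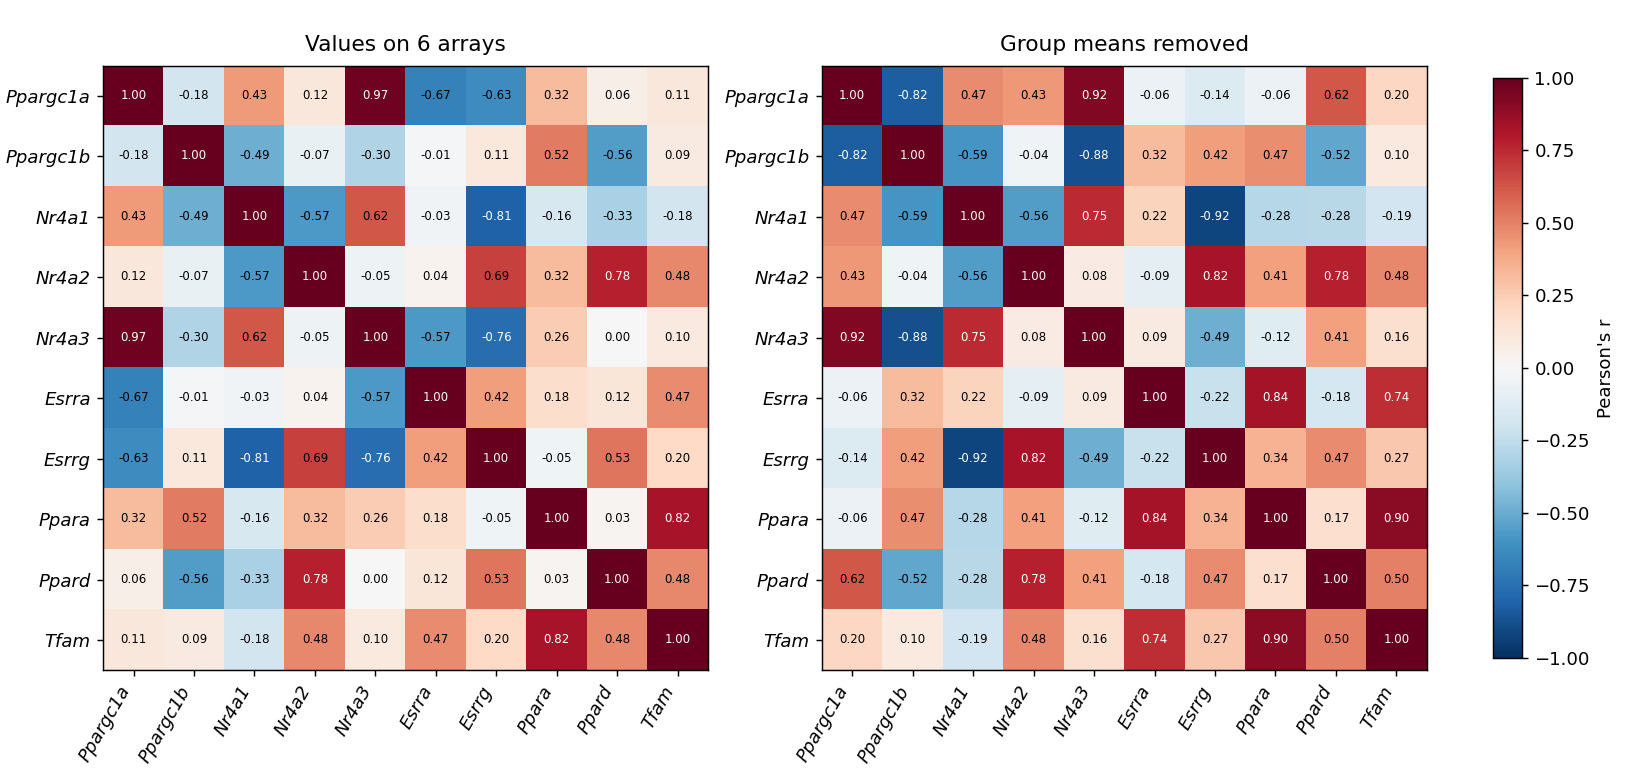
Pearson's r between the 10 genes over the 6 arrays, from the values (left) and after the mean of each group was removed (right), from −1 in blue to 1 in red. The Ppargc1a and Nr4a3 cell is 0.97 on the left and 0.92 on the right, while the cells of Ppargc1a with Esrra and Esrrg are blue on the left and near white on the right.

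To find genes with a like pattern, 1826 named genes above the median level and with a range of at least 0.5 over the arrays were ranked by r with Ppargc1a and with Nr4a3. Of these, 27 had r of 0.9 or more with Ppargc1a and 29 with Nr4a3. The 5 most like Ppargc1a were Klhl33, a kelch-family gene (r = 0.988), Ccdc141, a coiled-coil gene (0.974), Ppp1r1a, an inhibitor of protein phosphatase 1 that protein kinase A activates (0.973), Nr4a3 itself (0.970) and Erg, an ETS factor of endothelial cells (0.968). Klhl33 had values of 7.96, 8.25 and 8.07 in sham and 8.36, 9.32 and 8.88 in castrated samples. Its order of castrated samples was that of Ppargc1a, which picking genes by r favours. The r values of both rankings include the difference between groups, so genes that separate the groups can rank high. Ppp1r1a stood at 7.70, 7.67 and 7.72 in sham and 7.95, 8.25 and 8.25 in castrated samples. The 5 most like Nr4a3 were Lxn, a carboxypeptidase inhibitor (0.983), Tspan8, a tetraspanin (0.982), Ppargc1a (0.970), Hnf4a, a nuclear receptor of liver (0.964), and Stxbp4, a syntaxin-binding gene (0.963). Hnf4a values ran from 5.33 to 5.88, close to the array medians.

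The genes of the pathway around the members were read in 7 lists, in which no gene passed the limma test over all genes. The median difference of all 22180 genes was −0.0056, and 48.5% of them were above 0. Among 26 measured genes of the signals known to act on Ppargc1a and Nr4a genes, 12 were higher and 14 lower in castrated samples, with a median of −0.024. At an unadjusted p under 0.05 there was 1 higher and 1 lower gene, where of all genes 3.62% were higher and 3.51% lower. The same shares of all genes apply to the counts of the lists that follow. Ppp3ca, the catalytic subunit of calcineurin, had values of 10.10, 10.25 and 10.18 in sham and 10.39, 10.59 and 10.59 in castrated samples (difference 0.34, standard error 0.10, limma adjusted p = 0.626). Rcan1, an inhibitor of calcineurin that calcineurin itself induces, had values of 10.61, 10.44 and 10.30 in sham and 10.42, 9.46 and 9.63 in castrated samples (difference −0.62, standard error 0.23, limma adjusted p = 0.668). Castrated sample 1 lay among the sham samples for Rcan1 and was nearest to them for Ppp3ca. Over the 6 arrays r with Ppargc1a was 0.967 for Ppp3ca and −0.960 for Rcan1, the 2 genes of smallest p in the list. Over the whole list the median r was 0.17, with 14 of 26 above 0, against a median of −0.024 over all genes. Creb1, the factor that binds the cAMP element, differed by 0.040 and its coactivators Crtc1, Crtc2 and Crtc3 by −0.033, −0.089 and −0.15. The catalytic subunits of AMP-activated kinase, Prkaa1 and Prkaa2, differed by −0.022 and 0.079. The sign for Creb1, Crtc1 and Prkaa1 changed when a sample was left out, so their directions are undetermined.

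The cAMP and CREB-induced genes, a class to which the Nr4a genes and Ppargc1a belong, went both ways. Of 20 genes 7 were higher and 13 lower, with a median of −0.086, and at an unadjusted p under 0.05 there were 2 in each direction. Id1, an inhibitor of differentiation factors, had values of 6.67, 6.41 and 6.44 in sham and 7.03, 7.30 and 7.05 in castrated samples (difference 0.62, standard error 0.12, limma adjusted p = 0.391). Fos, a subunit of the AP-1 factor, had values of 7.24, 6.35 and 6.00 in sham and 5.72, 5.28 and 5.06 in castrated samples (difference −1.18, standard error 0.29, limma adjusted p = 0.485). Fos, the early-response gene beside the Nr4a genes, was thus lower in all castrated samples while Nr4a3 was higher in all of them. Egr1, Fosb and Junb, further early-response genes, differed by −0.45, −0.45 and −0.31. Sham sample 1 stood apart for this list, with a summed linear level of 4407.5 against 3237.5 and 2962.1 in sham samples 2 and 3 and 3041.8 to 3902.3 in the castrated group. Without it the differences of Fos, Egr1, Fosb and Junb were −0.82, −0.060, −0.26 and −0.15. Crem and Sik1, feedback genes of cAMP signalling, differed by 0.16 and 0.21, and Crem by 0.044 without sham sample 1.

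The known targets of PGC-1 and the estrogen-related receptors did not share the direction of Ppargc1a. Of 30 genes 26 were lower and 4 higher in castrated samples, with a median of −0.076, and 4 were lower at an unadjusted p under 0.05. The groups did not overlap for 8 of the 30, all lower, against 7.02% of all genes. Cox4i1, a subunit of cytochrome oxidase, had values of 10.52, 10.23 and 10.42 in sham and 10.04, 10.01 and 9.87 in castrated samples (difference −0.42, standard error 0.11, limma adjusted p = 0.544). Ckmt2, the mitochondrial creatine kinase of muscle, had values of 12.31, 12.37 and 12.53 in sham and 12.17, 12.06 and 12.04 in castrated samples (difference −0.31, standard error 0.10, limma adjusted p = 0.661). Sdha of complex II differed by −0.089, cytochrome c, Cycs, by −0.073, Fndc5, the precursor of irisin, by −0.21 (−0.081 without sham sample 3), and Vegfa, the vessel growth factor, by −0.032. The kynurenine aminotransferases Kyat1, Kyat3, Aadat and Got2, which PGC-1 alpha is known to induce in muscle, differed by −0.079, −0.065, 0.25 and −0.029. The directions of Vegfa, Kyat1 and Kyat3 are undetermined, since their sign changed when a sample was left out. That of Cycs is undetermined as well, since its probe sets ran from −0.18 to 0.11. Another probe set of Got2 differed by −0.13. Over the arrays the median r of the list with Ppargc1a was −0.478, against −0.024 over all genes. With group means removed it was −0.033, against 0.009 over all genes. Several of the respiratory genes of this list were known from earlier results of these data to be lower, so the count is no independent support.

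Of 19 partners and repressors of PGC-1 5 were higher and 14 lower in castrated samples (median −0.078). At an unadjusted p under 0.05, 1 was higher and 0 were lower. This was Pparg, the fat cell member of the PPAR family (5.73, 5.62 and 6.06 in sham, 6.22, 6.11 and 6.26 in castrated samples, difference 0.40, standard error 0.13, limma adjusted p = 0.658). Esrrb, the third estrogen-related receptor, differed by −0.26 (limma adjusted p = 0.735). The third coactivator of the family, Pprc1, differed by −0.078, the muscle regulator Perm1 by −0.14 (−0.034 without castrated sample 3), the repressor Nrip1 by 0.15 (0.042 without castrated sample 2), and the respiratory factors Nrf1 and Gabpa by −0.13 and −0.036. The direction for Gabpa is undetermined, since it was 0.054 without sham sample 3. Of 13 genes of mitochondrial DNA transcription and replication 3 were higher and 10 lower (median −0.068), and 1 was lower at an unadjusted p under 0.05. This was Lonp1, the mitochondrial protease that degrades Tfam, with values of 8.26, 8.10 and 8.24 in sham and 7.90, 7.94 and 7.98 in castrated samples (difference −0.26, standard error 0.097, limma adjusted p = 0.671). Mterf1a, which has a near-identical copy and lay far under the array medians, differed by 0.30 (limma adjusted p = 0.815), and by 0.052 without sham sample 2 and 0.52 without sham sample 3.

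Of 20 PPAR targets 9 were higher and 11 lower (median −0.023), and 0 passed at an unadjusted p under 0.05. The smallest p belonged to Acaa2, the last enzyme of mitochondrial fatty acid oxidation (difference −0.22, limma adjusted p = 0.757, and −0.13 without castrated sample 3), and Acadvl, its first dehydrogenase for long chains (−0.17, adjusted p = 0.776). Angptl4, an inhibitor of lipoprotein lipase, differed by 0.0016, and its sign changed when a sample was left out. Of 19 genes linked to Nr4a receptors in muscle 9 were higher and 10 lower (median −0.0028), and 1 was lower at an unadjusted p under 0.05. This was Cav3, the muscle caveolin, with values of 7.20, 7.14 and 7.08 in sham and 6.77, 6.92 and 6.78 in castrated samples (difference −0.32, standard error 0.097, limma adjusted p = 0.642). Mstn, the growth inhibitor myostatin, differed by 0.39 (limma adjusted p = 0.762), which rested on castrated sample 3, since it was 0.12 without it. The glucose transporter Slc2a4 differed by −0.14, and by −0.086 without sham sample 1. The muscle fructose bisphosphatase Fbp2 differed by 0.26, and by 0.096 without sham sample 3.

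**Figure D5:**
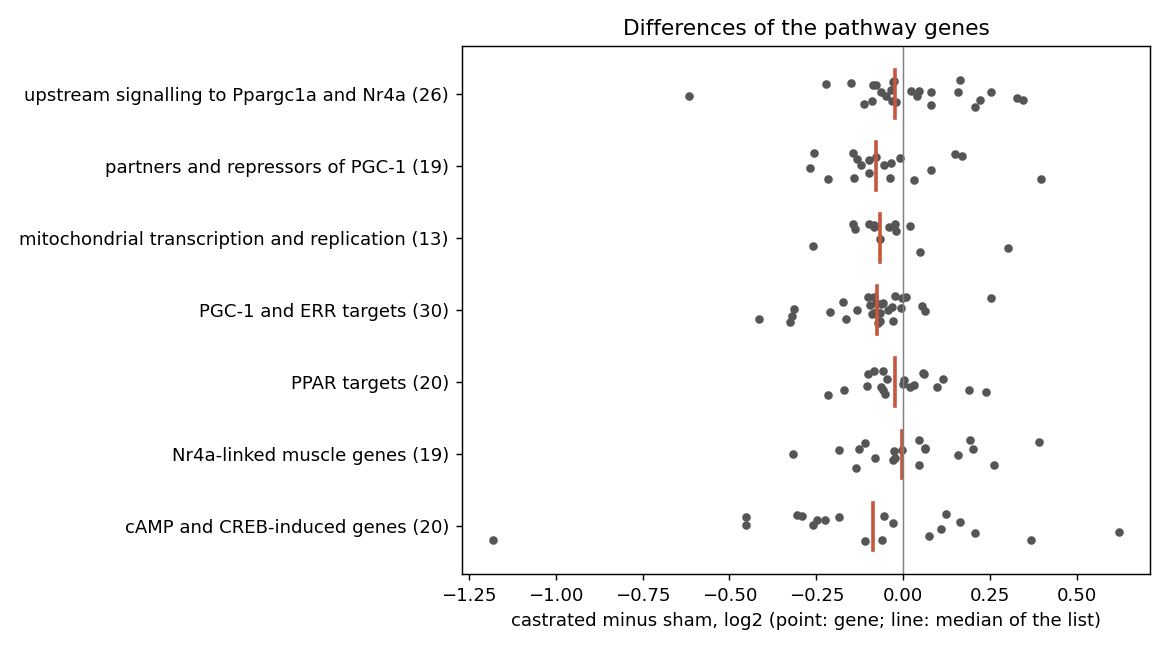
Castrated minus sham difference of every measured gene of the 7 lists on the log2 scale, each point a gene and each red line the median of its list, with the number of genes in brackets. The medians lie between −0.086 and −0.0028, the PGC-1 and ERR targets lie mostly left of 0, and Fos (−1.18) is the point farthest from 0.

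Markers of fibre and cell types were set beside the Ppargc1a and Nr4a3 differences. In bulk muscle, more cells of a type and more RNA per cell cannot be told apart. Of 8 slow fibre markers 7 had higher castrated means. Castrated sample 1 stood apart, with a summed linear level of the list of 1603, against 705 to 865 in sham and 741 and 748 in castrated samples 2 and 3. Without that sample the Ppargc1a and Nr4a3 differences were 1.40 and 1.81. The summed level of 9 fast fibre markers lay between 73046 and 81189 in the sham group and between 74453 and 78601 in the castrated group. Of 6 adipocyte markers 5 were higher, with summed levels of 1904 to 2338 in the sham group against 2524 to 2685 in the castrated group. Most of that sum came from Fabp4, with log2 values of 10.95, 10.75 and 11.05 in sham and 11.25, 11.16 and 11.17 in castrated samples. The sum therefore follows mainly that gene. The defining adipocyte genes Adipoq and Plin1 stayed between 4.90 and 5.58, close to the array medians. Of 4 brown adipocyte markers 2 were higher, and those of smallest p, Cidea and Prdm16, differed by −0.36 and 0.24 (limma adjusted p = 0.685 for each). Ucp1, the defining gene of that cell, differed by 0.045 and stayed between 4.44 and 4.80, below the array medians. Of 5 endothelial markers 3 were higher, with summed levels of 2618 to 3068 in the sham group against 2742 to 2896 in the castrated group. The largest rise among them was 0.12, for Kdr. Cldn5 was lower in every castrated sample than in any sham sample (difference −0.65, limma adjusted p = 0.485). Of 5 tendon markers 4 were higher (298 to 430 against 414 to 541), and of 5 macrophage markers 1 was (488 to 991 against 450 to 782). The part of the slow fibre, adipocyte and tendon markers in the member differences was not tested. Of 4 satellite cell markers 3 were higher (220.5 to 221.6 against 207.8 to 256.5), and of 2 measured Schwann cell markers 1 was (89.3 to 101 against 86.4 to 101), while no red blood cell marker was analysed here.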

How the data were processed

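The deposited table holds log2 expression values for 41345 probe sets of an Affymetrix whole-transcript array on 6 samples, normalized by the authors before deposit. Per the labels' protocols, total RNA was taken from about 25 mg of muscle and 300 ng was labelled with biotin. The submitters' processing notes name Partek with no role or version, and the methods of background correction and normalization were not given in the sources used here. The number of arrays limits the precision, since an array has no depth of reads.

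Groups follow the sample titles. The labels do not say more of the animals, so errors measure the spread between these samples. Of the probe sets 23521 name 1 gene, 1814 several and 16010 none, and 23328 matched a RefSeq gene by Entrez identifier. The highest-mean probe set stood for each of 22180 genes. One limma model (version 3.58.1, under R 4.3.3) was fitted to all genes for castrated minus sham with a moderated variance, and p-values were adjusted by Benjamini-Hochberg across the whole table at a threshold of 0.05. On simulated data with 200 changed genes the procedure recovered 30% of log2 changes of 0.5 and 100% of changes of 1, 1.5 and 2. There were 7 false calls. Differences of 0.5 or less can thus be missed. The simulation drew independent noise for each gene, and its recovery does not carry over to the real data. There, 16 genes differed by 1 or more, and only 3 of all genes passed. Ppargc1a (1.09) and Nr4a3 (1.34) did not pass, so differences above 1 can fail this test as well. Summed marker levels are sums of 2 raised to the log2 value.

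The members and lists were chosen with earlier results of these data known. The naming rule took every member, the 2 genes of smallest p per pathway list and the 5 genes most like Ppargc1a and Nr4a3. Further list genes were named for their known roles, some after their values were seen. Alternatives were 2 normalizations, 2 filters on dim genes, 2 treatments of probe sets, a replicate block, a trended and robust prior, array weights, and leaving out each sample. Figures were drawn with matplotlib 3.10.9.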

Additional observations from a re-analysis of the deposited data

How the results depend on the processing

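No member passed the limma threshold over all genes under any of the alternatives run, with 2 members at an unadjusted p under 0.05 in the fit reported. The Ppargc1a difference ran from 0.84 to 1.40 and that of Nr4a3 from 0.95 to 1.81 when a sample was left out, and they were 1.12 and 1.39 after quantile normalization. The filters, probe set treatments, replicate block and prior left every member difference unchanged. This was fixed in advance and is no sign of robustness. Each member has 1 probe set, the groups are balanced over replicate numbers, and filters and priors act only on the p-values. Leaving out 1 of 3 samples cannot move a difference by its pooled within-group SD. That all 150 member values under alternatives stayed within 1 such SD was therefore largely fixed in advance. Of these 150 values 10 had the other sign. These belonged to Ppargc1b, Nr4a1, Nr4a2, Ppard and Tfam, whose directions are undetermined. A kept sign does not settle a direction, since the intervals of Esrra, Esrrg and Ppara also reached both sides of no difference. Of the 616 values of the 41 genes named from the pathway lists, 20 had the other sign. These belonged to 9 genes, Creb1, Crtc1, Prkaa1, Cycs, Vegfa, Kyat1, Kyat3, Gabpa and Angptl4, whose directions are undetermined. Nor does a kept sign settle the direction of another pathway gene, as none passed the limma test over all genes. A further 18 of the 41 kept their sign and moved by over 1.5 times under at least 1 alternative. The count of genes past the threshold was 3, and 3 to 4 with a sample left out. It was 9 and 16 when genes below the 25th or the 50th percentile of level were left out, and 10 with a trended robust prior. The labels do not pair the samples by replicate number, so the fit reported was unpaired. Same-numbered samples had small positive residual correlations of 0.0759, 0.0325 and 0.0473. Each of the 6 samples correlated best with its own number, a hint of pairing from the data and not the design. With the replicate block 2 genes passed and no member did. No array detection values were used here, so weak signals such as that of Nr4a2 cannot be told from background.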
